A study of Mus musculus with 24 samples.

Results

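The genes described here are the deubiquitinases of the Usp and Otu families in mouse skeletal muscle. Their members were taken by name alone, with no measured value: every non-control probe whose gene name in the array design was Usp with a number, or Otud or Otub with a number. The rule found 149 of 56605 probes, which stand for 59 of 37324 gene names, 49 of them Usp and 10 Otu. A single probe was present for 16 genes and more than 1 for 43, with the most, 10, for Usp15.

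Total RNA of skeletal muscle was hybridised to one-colour oligonucleotide arrays, 1 array per mouse and 8 mice in each of 3 groups. STD_Cont mice ate the standard low fat diet and belonged to the control lineage. HFD_Cont mice ate the high fat diet and belonged to the control lineage. HFD_O3 mice ate the high fat diet and belonged to the omega-3 lineage, so no group had the omega-3 lineage on the low fat diet. Strain, sex, age, the muscle, the length of the diets and what defines the omega-3 lineage are not stated in the labels. The comparisons of the groups ask what the high fat diet changed in the control lineage, and what differed between the lineages on that diet.

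Deubiquitinases are proteases that cut ubiquitin off proteins or trim chains of ubiquitin, and so reverse the work of ubiquitin ligases. The Usp enzymes form the larger family, with members at the proteasome, on histones, in endosomes and on mitochondria, and the OTU enzymes (Otub and Otud) often prefer one chain linkage over others. In skeletal muscle, the balance between ligases such as Trim63 and deubiquitinases such as Usp19 and Usp14 is known for its part in the turnover of muscle proteins during fasting and atrophy.

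The promoter stretches of the 4 genes with the smallest p-values in the comparison of the diets are shown because these genes carry the results below. Each line gives the 250 bases before the RefSeq start site on GRCm38.p6, read 5′ to 3′ on the gene's own strand. Capitals mark an E-box (CACGTG) and a forkhead motif (GTAAACA). Otud1 lies on the plus strand at chr2:19657481-19657730, Usp21 on the minus strand at chr1:171287962-171288211, Usp3 on the minus strand at chr9:66593116-66593365 and Usp30 on the plus strand at chr5:114100083-114100332.
Otud1: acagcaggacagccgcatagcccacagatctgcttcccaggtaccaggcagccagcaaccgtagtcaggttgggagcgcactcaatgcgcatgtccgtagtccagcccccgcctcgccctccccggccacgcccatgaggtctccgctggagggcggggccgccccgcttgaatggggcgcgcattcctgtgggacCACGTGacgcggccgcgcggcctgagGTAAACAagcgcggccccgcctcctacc
Usp21: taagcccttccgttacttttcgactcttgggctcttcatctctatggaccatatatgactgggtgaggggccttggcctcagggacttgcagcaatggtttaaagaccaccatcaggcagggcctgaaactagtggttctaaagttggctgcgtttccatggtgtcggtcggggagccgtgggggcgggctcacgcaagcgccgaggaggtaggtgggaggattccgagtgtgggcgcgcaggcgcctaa
Usp3: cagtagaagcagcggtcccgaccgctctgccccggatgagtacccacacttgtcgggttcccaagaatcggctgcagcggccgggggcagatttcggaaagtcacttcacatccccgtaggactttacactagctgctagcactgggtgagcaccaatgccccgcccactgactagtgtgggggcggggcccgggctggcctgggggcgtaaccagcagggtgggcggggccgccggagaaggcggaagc
Usp30: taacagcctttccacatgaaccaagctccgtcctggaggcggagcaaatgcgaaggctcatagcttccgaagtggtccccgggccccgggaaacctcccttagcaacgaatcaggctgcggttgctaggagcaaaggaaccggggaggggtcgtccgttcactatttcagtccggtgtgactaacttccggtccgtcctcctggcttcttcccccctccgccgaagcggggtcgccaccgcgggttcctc
All 4 stretches are rich in G and C, from 58.0% in Usp21 to 69.2% in Otud1. The Otud1 stretch holds the E-box beginning 54 bases before the start and the forkhead motif beginning 28 bases before it.

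RefSeq windows from 250 bases before to 50 after a start site were found for 45 of the 59 genes, in 48 windows of 300 bases, and motifs were searched on both strands. Otud1 was the only member with the forkhead motif (GTAAACA), in 1 of 48 windows or 2.08%, beside 3.65% of all 32851 windows. The E-box was in 6 member windows, 12.5% beside 7.15% of all. The AP-1 motif (TGANTCA) was also in 12.5%, beside 7.81%, and the CRE (TGACGTCA) in 4.17%, beside 1.79%. The GC box (GGGCGG) was in 62.5%, beside 35.7%, and CCAAT in 31.2%, beside 37.4%. GAANNTTC, a core of the heat shock element, was in 0 of 48, beside 7.86%. The motifs were counted apart, wherever they overlapped. A match says only that these letters are in the window.

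The arrays lay on 3 slides of 8. The share of spots well above background ran from 52.0 to 60.7% per array, with 0 saturated. All 12 skeletal muscle markers were well above background on 24 of 24 arrays. The white adipocyte markers varied more, with 10 of 10 measured and 9 above background on every array. Their mean deviation from the average array ranged from -1.57 to 1.48 (log2) in STD_Cont, from -1.31 to 2.38 in HFD_Cont and from -1.42 to 1.82 in HFD_O3. In HFD_Cont against STD_Cont, 7 of the 10 adipocyte markers had values above 0, with a median change of 0.51, and in HFD_O3 against HFD_Cont 8 of 10 had values below 0, with a median of -1.02. All 7 slow muscle markers lay below 0 in HFD_Cont against STD_Cont, with a median of -0.52. They also lay below 0 in HFD_O3 against STD_Cont, with a median of -0.26. On HFD_Cont array 4 their mean deviation was -3.91. The group medians of that deviation were -0.04 in STD_Cont, -0.08 in HFD_Cont and 0.11 in HFD_O3. All 7 tendon markers measured lay above 0 in HFD_Cont against STD_Cont (median 0.29) and below 0 in HFD_O3 against HFD_Cont (median -0.35). HFD_Cont array 4 also had the highest adipocyte deviation (2.38) and the highest tendon deviation (1.03). In these lists 0 markers passed the threshold in any of the 3 comparisons. Of 8 endothelial markers, 1 passed as higher in HFD_Cont against STD_Cont. All 7 Schwann cell and all 5 measured erythroid markers lay below 0 in HFD_O3 against STD_Cont (medians -0.35 and -0.27). All 8 fibroblast markers lay below 0 in HFD_O3 against HFD_Cont (median -0.24). Of these last 3 lists, 0 markers passed. The part of slow fibres, tendon and these other cell types in the results was not tested. Nor was that of adipose tissue beyond the 2 adipocyte settings given with Otud1. Rows within slides were not balanced: slide 2 held its HFD_Cont arrays in row 1 only and its STD_Cont arrays in row 2 only. Arrays 1 and 7 of HFD_O3 stood apart among the members. Array 1 was the highest or the lowest of its group for 29 of 52 genes (55.8%) and array 7 for 27 (51.9%), and the other HFD_O3 arrays for 4 to 16. In the other groups the highest share was 40.4%, on STD_Cont array 7. The same share over all names was not computed. Values without HFD_O3 arrays 1 and 7 are given beside the results that they move.

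Levels below are log2 processed signals minus the 75th percentile of their array, and a change is the difference of 2 group means on that scale with its moderated standard error (SE). In bulk muscle, fewer cells of a type and less RNA per cell cannot be told apart. Of the 59 genes, 52 passed the filter on dim probes, 44 Usp and 8 Otu. To pass, a probe had to be marked well above background on 6 or more arrays of 1 group. The genes left out were Otud6a, Otud7a, Usp26, Usp35, Usp43, Usp51 and Usp9y, whose probes were each well above background on 0 or 1 of 24 arrays. Usp26 is known for its expression in testis, and Usp9y is the Y-linked copy of Usp9x.

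In the comparison of diets within the control lineage, Otud1 and Usp21 were higher in HFD_Cont than in STD_Cont and no measured member was lower past the threshold. Otud1, an OTU enzyme linked to innate immune and TGF-beta signalling, was 2.72-fold higher. Usp21, which removes ubiquitin from histone H2A and from signalling proteins, was 1.30-fold higher. The 2 genes called of 52 make 3.85%, beside 2.91% of the 19937 gene names tested, so the share among the members was near that of the array. In the higher direction alone, 1.43% of all names were called, and in the lower direction 1.48%. For 0 of 52 members did the groups not overlap, beside 1.14% of all names. The member changes had a median of -0.01, beside 0.00 over all names, and 46 of the 52 were smaller than 0.2 in size.

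Otud1 ranged from -2.64 to -0.87 in STD_Cont, with a median of -2.13. In HFD_Cont it ranged from -1.50 to 0.84, with a median of -0.48. In HFD_O3 it ranged from -1.73 to 1.26, with a median of -0.35. All 8 HFD_Cont arrays and all 8 HFD_O3 arrays lay above the STD_Cont median, while the ranges overlapped through STD_Cont arrays 6 to 8 and the low arrays of the other groups. The group means were -1.94 ± 0.61 (SD, n = 8), -0.50 ± 0.79 and -0.24 ± 1.06 in that order. Otud1 rose by 1.44 ± 0.40 (SE, n = 8 per group) in HFD_Cont against STD_Cont, with a limma adjusted p of 0.0498. A single probe measured it, at chr2:19581150-19581209 on mm9, well above background on 24 of 24 arrays.

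The Otud1 call sat at the threshold. It was kept in 6 of 24 fits that left out 1 array, those without STD_Cont 6 or without HFD_O3 1, 2, 6, 7 or 8, and the adjusted p over the 24 fits ran from 0.0281 to 0.110. The change was 2.38 on slide 1, 0.99 on slide 2 and 0.84 on slide 3, and with slide as a fixed block it was 1.41 with an adjusted p of 0.066. With the 7 arrays of adipocyte score over 0.5 removed the change was 1.71, with an adjusted p of 0.329, and 0 of 19937 names were called; with the score as a covariate it was 1.59, with an adjusted p of 0.0399.

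Usp21 ranged from 0.69 to 1.32 in STD_Cont, with a median of 1.07. In HFD_Cont it ranged from 1.10 to 1.90, with a median of 1.41, and in HFD_O3 from 1.06 to 1.41, with a median of 1.28. HFD_Cont array 1 was the highest of all, and 8 of 8 HFD_Cont arrays lay above the STD_Cont median, although the ranges overlapped. Usp21 rose by 0.38 ± 0.09 (SE) in HFD_Cont, with a limma adjusted p of 0.0252. Both of its probes, at chr1:173212090-173212149 and chr1:173213167-173213487 on mm9, gave a rise, of 0.38 and 0.31, with adjusted p of 0.0275 and 0.0495 when every probe was tested. The change was 0.37, 0.38 and 0.39 on slides 1, 2 and 3, and the call was kept in 21 of 24 fits with 1 array left out, being lost without STD_Cont 1 (adjusted p 0.0606), STD_Cont 7 (0.0508) or HFD_Cont 5 (0.052).

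**Figure D1:**
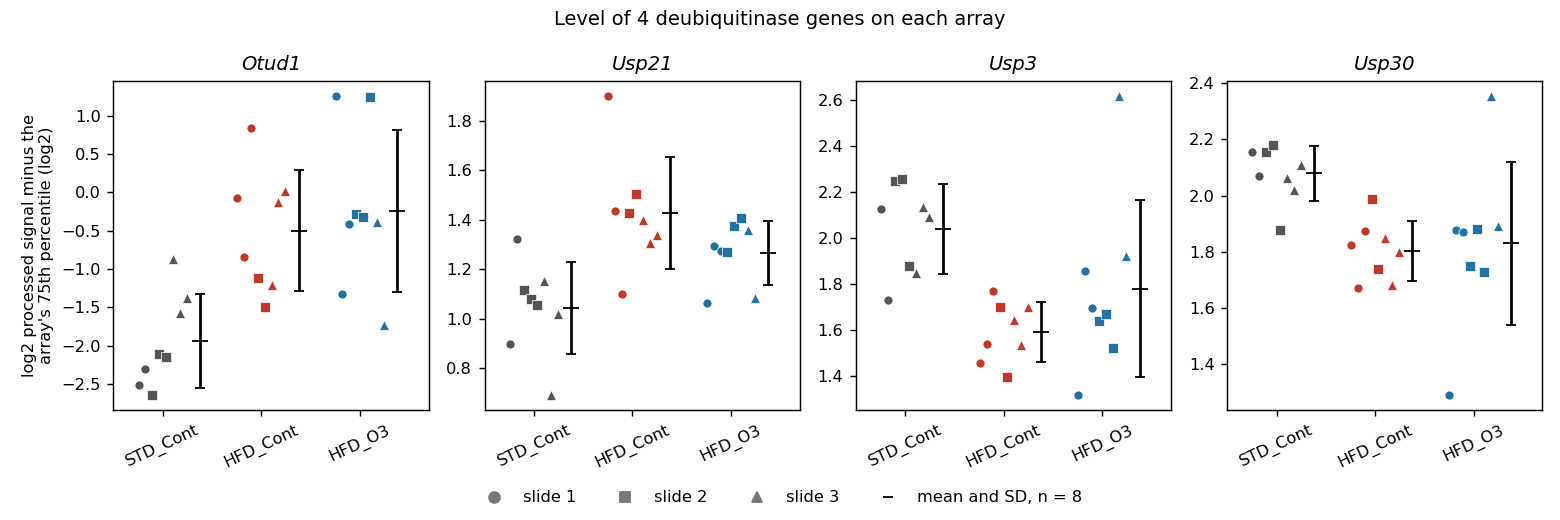
Levels of Otud1, Usp21, Usp3 and Usp30 on each of the 24 arrays (log2 processed signal minus the array's 75th percentile), by group; marker shapes give the slide and black bars the mean and SD of 8 arrays. Otud1 lies between -2.64 and -0.87 in STD_Cont and reaches 1.26 in HFD_O3, and HFD_O3 array 7 is the highest point for Usp3 (2.62) and Usp30 (2.35).

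Just outside the threshold stood Usp3 and Usp30. Usp3, which acts on histones H2A and H2B in the response to DNA damage, ranged from 1.73 to 2.26 in STD_Cont (median 2.11). It ranged from 1.40 to 1.77 in HFD_Cont (median 1.59) and from 1.32 to 2.62 in HFD_O3 (median 1.68). All 8 HFD_Cont arrays lay below the STD_Cont median, and HFD_O3 array 7 lay above every array of the other groups. The Usp3 difference between HFD_Cont and STD_Cont was -0.45 ± 0.13 (SE), with a limma adjusted p of 0.0541. It passed as lower in 8 of 21 other settings, among them quantile normalization (adjusted p 0.0456) and the authors' value table (0.0398). Without HFD_O3 array 7, which is in neither group but enters the shared spread, the same difference had an adjusted p of 0.00631.

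Usp30, which sits on the outer mitochondrial membrane and opposes Parkin-driven mitophagy, ranged from 1.88 to 2.18 in STD_Cont (median 2.09). In HFD_Cont it ranged from 1.67 to 1.99 (median 1.81), with 8 of 8 arrays below the STD_Cont median. In HFD_O3 it ranged from 1.29 on array 1 to 2.35 on array 7 (median 1.87), wider than both other groups. Its difference between HFD_Cont and STD_Cont was -0.28 ± 0.09 (SE), with a limma adjusted p of 0.106. With HFD_O3 arrays 1 and 7 removed, both Usp3 and Usp30 passed as lower in HFD_Cont, with limma adjusted p of 0.00334 and 0.00354. In that setting 4 members were called. Those arrays were picked because they were extreme among these same members, Usp3 and Usp30 included. They are in neither group compared, so their removal narrows the shared spread and is no separate support for the differences. The smallest p among the other members was that of Usp12, which works with Wdr48 and is a close relative of Usp46: it was higher by 0.21 ± 0.07 (SE), with a limma adjusted p of 0.111.

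**Figure D2:**
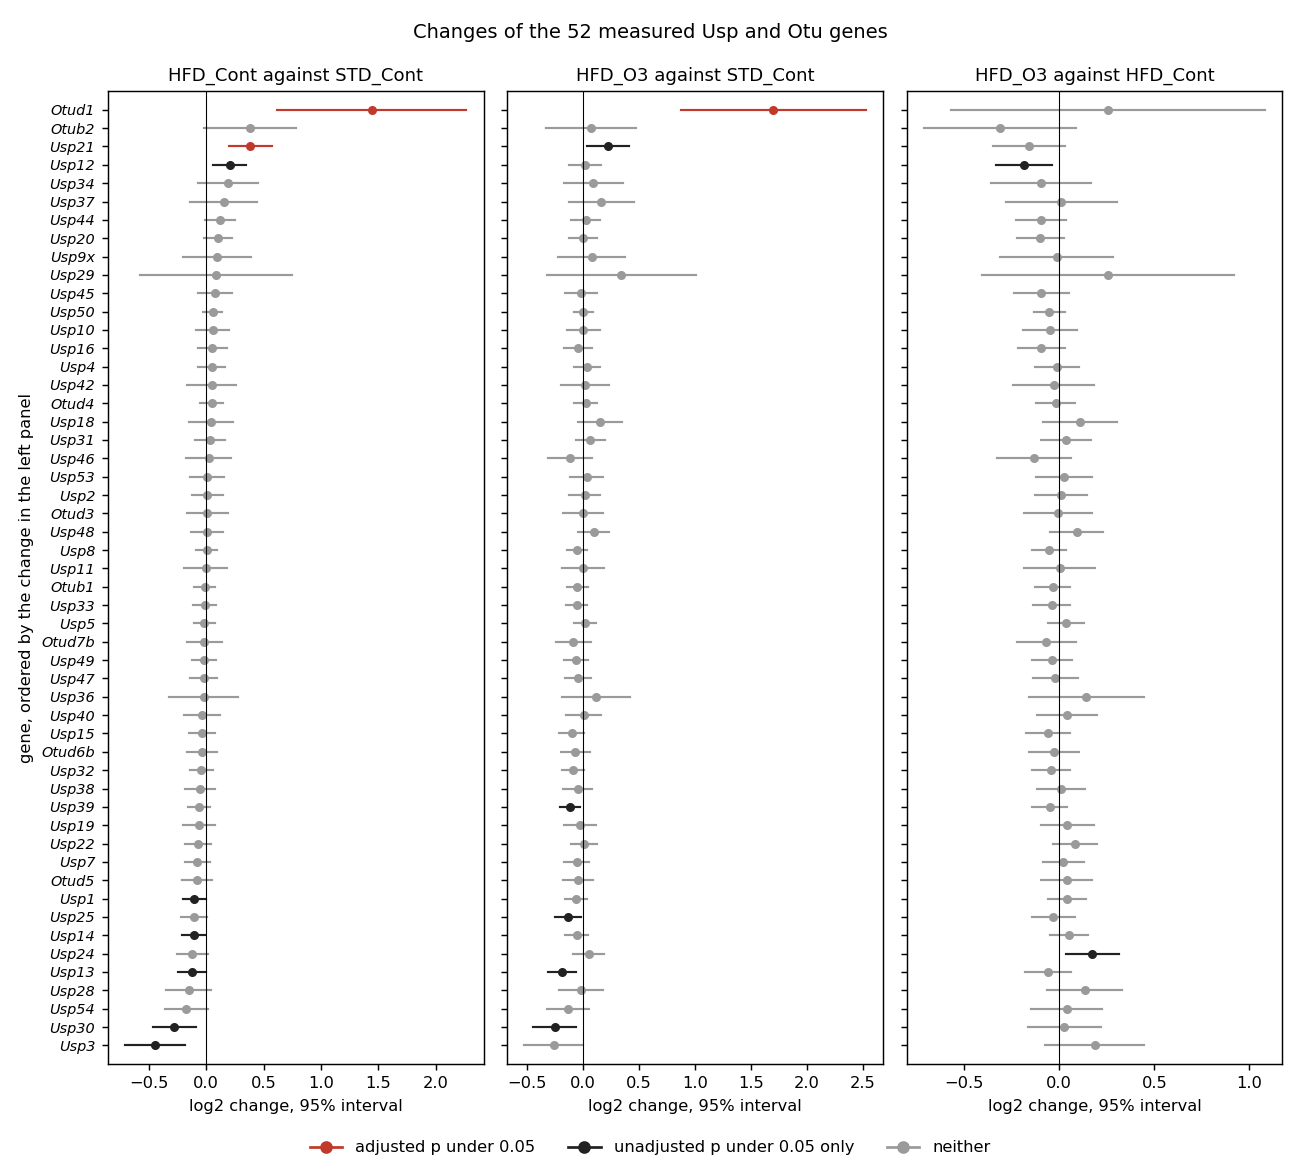
Change of each of the 52 measured genes (log2, with the 95% interval from limma) in the 3 comparisons, in the order of the left panel; red marks an adjusted p under 0.05 and black an unadjusted p under 0.05. Otud1 is red in both comparisons with STD_Cont (1.44 and 1.70) and Usp21 in HFD_Cont against STD_Cont (0.38), and no gene is red in HFD_O3 against HFD_Cont.

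At an unadjusted p under 0.05, 8 of the 52 members (15.4%) differed between HFD_Cont and STD_Cont, beside 16.6% of all names. Of these, 3 were higher, beside 7.92% of all names, and 5 lower, beside 8.63%. The 3 members that recycle ubiquitin chains or work at the proteasome (Usp5, Usp13 and Usp14) had a median change of -0.11, and 0 of 3 passed. Usp14, which trims chains on proteins held by the proteasome, had a change of -0.11 ± 0.05 (SE). Usp13, a relative of Usp5 that binds ubiquitin chains, had a change of -0.13 ± 0.06, while Usp5, the main enzyme that takes free chains apart, had -0.01 ± 0.05.

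Of the members that act on histones or in DNA repair, 13 of 15 were measured, 1 rose (Usp21), 0 fell and 12 did not pass, with a median of -0.01. Usp1, which removes ubiquitin from FANCD2 and PCNA, had a change of -0.10 ± 0.05 (SE). Otub2, an OTU enzyme, had 0.39 ± 0.19 with 7 of 8 HFD_Cont arrays above the STD_Cont median. Usp44, a histone H2B enzyme of the mitotic checkpoint, had 0.12 ± 0.06. Otub1, which also blocks the E2 enzyme Ube2n, had -0.01 ± 0.05.

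The members at mitochondria, peroxisomes or endoplasmic reticulum (Usp13, Usp19, Usp25 and Usp30) all had values below 0 in HFD_Cont, with a median of -0.11, and 0 of 4 passed. Usp25, which has a muscle form of its own, had -0.10 ± 0.06 (SE), and Usp19, a tail-anchored enzyme studied in muscle wasting, had -0.06 ± 0.07. Of the 8 measured members of endosomes and membrane traffic, 0 passed, with a median of 0.04. Usp20 had 0.10 ± 0.06, and Usp8, which acts on receptors at the endosome, had 0.00 ± 0.04.

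Of the 8 measured members tied to cytokine and interferon signalling, 1 rose (Otud1) and 7 did not pass, with a median of 0.00. Usp18, which removes the ubiquitin-like protein ISG15 and is induced by interferon, had a change of 0.04 ± 0.09 (SE). The 13 measured members of the cell cycle and cytoskeleton list had a median of 0.01, and 0 passed. Usp24 had -0.12 ± 0.07. Of the members tied to splicing or long classed as inactive, Usp39, a splicing factor, had -0.06 ± 0.04 and Usp54 -0.17 ± 0.09. Usp2, whose transcript follows the circadian clock in many tissues, had 0.01 ± 0.07, and its levels ran from 4.81 to 5.28 in STD_Cont and from 4.99 to 5.18 in HFD_Cont.

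In HFD_O3 against STD_Cont, which changes both diet and lineage and shares the STD_Cont arrays with the comparison above, Otud1 was the 1 member called, 3.25-fold higher. That is 1.92% of the 52, beside 0.597% of all names (0.406% called higher and 0.191% lower). For 0 of 52 members did the groups not overlap, beside 0.15% of all names, and 0 of 109 member probes were called when every probe was tested, beside 0.551% of all probes. Otud1 rose by 1.70 ± 0.40 (SE), with a limma adjusted p of 0.0489. The change was 2.25 on slide 1, 2.52 on slide 2 and 0.22 on slide 3, and the call was kept in 5 of 24 fits with 1 array left out, those without STD_Cont 6, HFD_Cont 3 or HFD_O3 2, 7 or 8. With slide as a fixed block the change was 1.70 with an adjusted p of 0.0765. With HFD_O3 arrays 1 and 7 removed it was 1.47, with an adjusted p of 0.0929. The 1 member then called was Usp30, with a change of -0.25 and an adjusted p of 0.0413. Those arrays were picked for being extreme among the members, Usp30 included.

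The median member change in HFD_O3 against STD_Cont was 0.00, beside -0.02 over all names. At an unadjusted p under 0.05 there were 6 members (11.5%), beside 11.2% of all names. Of these, 2 were higher, beside 4.83%, and 4 lower, beside 6.39%. Usp21 had a change of 0.22 ± 0.09 (SE, adjusted p 0.33 with limma). Usp13 had -0.18 ± 0.06, with 8 of 8 HFD_O3 arrays below the STD_Cont median, Usp30 -0.25 ± 0.09, Usp25 -0.13 ± 0.06 and Usp39 -0.11 ± 0.04. Usp3 had -0.26 ± 0.13, and without HFD_O3 array 7 both Usp3 and Usp30 passed as lower, which made 3 calls with Otud1. Usp18 had 0.15 ± 0.09, Usp37 0.17 ± 0.14, Usp48 0.10 ± 0.07 and Usp15 -0.10 ± 0.06, none of them past the threshold.

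Between the lineages on the high fat diet, no member and no other gene name passed the threshold: 0 of 52 (0%), beside 0 of 19937 (0%) with limma. At an unadjusted p under 0.05 there were 2 members (3.85%), beside 7.08% of all names, with 1 higher, beside 2.69%, and 1 lower, beside 4.39%. For 0 members did the groups not overlap, beside 0.0351% of all names. Usp12 ranged from 2.37 to 2.57 in HFD_Cont and from 2.08 to 2.40 in HFD_O3, with 8 of 8 HFD_O3 arrays below the HFD_Cont median. Its change was -0.19 ± 0.07 (SE, adjusted p 0.638 with limma). Usp24, an enzyme tied to genome stability and the cell cycle, ranged from 0.11 to 0.46 in HFD_Cont and from 0.28 to 0.65 in HFD_O3. Its change was 0.17 ± 0.07 (adjusted p 0.638), with 8 of 8 HFD_O3 arrays above the HFD_Cont median.

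For Otud1 the difference between the lineages was 0.26 ± 0.40 (SE), and its 95% interval ran from -0.57 to 1.08, which spans 0 by a wide margin in either direction. For Usp21 it was -0.16 ± 0.09, with an interval from -0.35 to 0.03, and 8 of 8 HFD_O3 arrays were below the HFD_Cont median on the probe that stood for the gene, while its second probe gave 0.01. For Usp3 it was 0.19 ± 0.13, with an interval from -0.07 to 0.45. Otub2 had -0.31 ± 0.19, Usp20 -0.10 ± 0.06, Usp44 -0.10 ± 0.06, Usp16 -0.09 ± 0.06, Usp28 0.13 ± 0.10, Usp48 0.09 ± 0.07, Usp22 0.08 ± 0.06 and Usp18 0.11 ± 0.09. In all, 49 of the 52 changes were smaller than 0.2 in size, with SEs from 0.040 to 0.40.

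More than 1 kept probe was present for 30 of the genes, and several disagreed. For Usp3, 2 of 3 probes gave -0.45 and -0.35 in HFD_Cont against STD_Cont, while the third, about 75 kb away on mm9 at chr9:66440996-66441055, gave -0.05 ± 0.13 (SE). For Usp53, a member with a USP fold long classed as inactive, the probe that stood for the gene gave 0.01 ± 0.07. A second probe of it, at chr3:122636571-122636630, gave -0.32 ± 0.08, with an adjusted p of 0.0336 over all probes with limma. In that test of every probe, 3 of 109 member probes were called (2.75%), beside 2.67% of the 29245 probes.

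For Usp45, the probe that stood for the gene gave 0.08 ± 0.07 (SE), and a probe at chr4:21725294-21725353 gave -0.37 ± 0.11 in HFD_Cont and -0.36 ± 0.11 in HFD_O3 against STD_Cont. For Usp40, the probe that stood for it gave -0.03 ± 0.08 in HFD_Cont and the others -0.19 ± 0.09 and -0.30 ± 0.09. In HFD_O3 against STD_Cont the Usp40 probes gave 0.01, -0.11 and -0.22. In the same comparison 1 of 4 Usp16 probes gave -0.35 ± 0.14 while the others lay between -0.04 and 0.04, and the 3 Usp39 probes gave -0.11, 0.00 and 0.11. The 5 Usp14 probes ranged from -0.26 to 0.00 in HFD_Cont against STD_Cont. Probes can read different transcript forms, and which form each one reads was not tested.

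**Figure D3:**
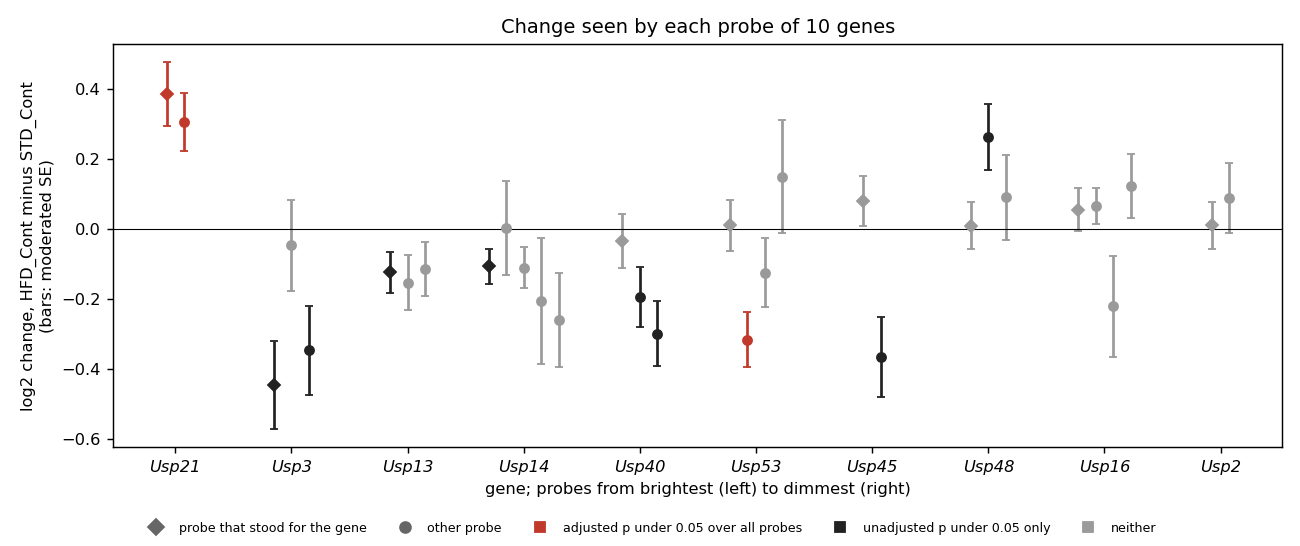
Change of every kept probe of 10 genes in HFD_Cont against STD_Cont (log2, bars are the moderated SE); diamonds are the probes that stood for a gene. Both Usp21 probes lie above 0 (0.38 and 0.31), while Usp3, Usp53, Usp45 and Usp40 each have a probe near 0 and a probe between -0.45 and -0.30.

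Some probe placements limit what a name means. The probe that stood for Usp50 lay at chr2:126534918-126534977 on mm9, and the 2 Usp50 probes of the design spanned 70796 bases, more than the 22411 bases of the RefSeq gene on GRCm38.p6. The level under that name (6.59 to 6.91 over the 24 arrays) may therefore not be that of Usp50. Usp29 rested on 1 of its 5 probes, at chr7:6722710-6722769 on mm9, whose transcript had no RefSeq match here. The other 4 Usp29 probes, including both with a RefSeq match, were well above background on 0 of 24 arrays. The level under that name may therefore not be that of the Usp29 messenger RNA. A second kept Otub2 probe lay on the strand opposite to the gene and gave 0.04 ± 0.53 (SE). Of the 109 kept member probes, 79 were on the gene's strand, 1 was opposite and 29 had no strand to compare.

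Within groups, most members varied little from mouse to mouse. The median within-group SD was 0.130 for the members, beside 0.184 for all names. The names were not matched to the members by signal level, so the part of brightness in this difference was not tested. Otud1 had the largest within-group SD of the members, at 0.842, the 98.5th percentile of all names. It was followed by the 1 kept probe named Usp29, a gene expressed from the paternal allele, at 0.673, and Otub2 at 0.405. That Usp29 probe had 1 array far above the others in each group, -1.54 in STD_Cont, -0.79 in HFD_Cont and 0.13 in HFD_O3, and its change in HFD_Cont against STD_Cont was 0.09 ± 0.32 (SE). Usp13, Usp16 and Usp47, named for their high signal, had SDs from 0.09 to 0.13 in every group.

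**Figure D4:**
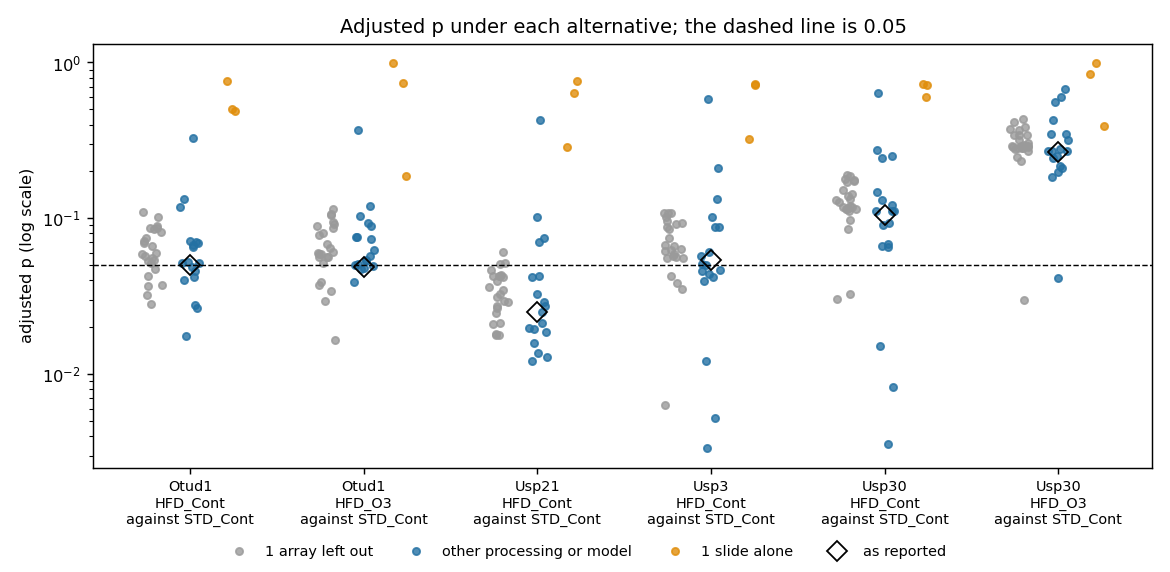
Adjusted p (log axis) of 6 results when 1 array was left out (grey), under other processing or another model (blue) and on 1 slide alone (orange); the diamond is the value as reported and the dashed line 0.05. Otud1 lies at the line (0.0498 and 0.0489) and Usp21 mostly under it. The lowest values of Usp3 (0.00334) and Usp30 (0.00354) are those with HFD_O3 arrays 1 and 7 removed. Those arrays were picked for being extreme among these same members.

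Other genes of the ubiquitin system were also compared between the diets. Of all names, 2.91% were called in HFD_Cont against STD_Cont, 1.43% higher and 1.48% lower. The list of other deubiquitinases counts names, and Mindy1 and Fam63a, an older symbol of the same gene, were both measured. Of 35 such names measured (46 written, from the remaining OTU, UCH, Josephin, JAMM and MINDY families among others), 1 rose, 0 fell and 34 did not pass in HFD_Cont, with a median of -0.01. The one that rose was Tnfaip3, an OTU enzyme that restrains NF-kappaB signalling, by 0.56 ± 0.13 (SE, adjusted p 0.0246 with limma). Mindy1 and Zranb1 had -0.23 ± 0.06 and -0.30 ± 0.09, with adjusted p of 0.053 and 0.0731. Ubb, a gene that encodes a chain of ubiquitin units, fell by 0.30 ± 0.08, with an adjusted p of 0.0396.

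Of 8 E1 enzymes, 1 rose, Uba7, which activates ISG15, by 0.40 ± 0.10 (SE, adjusted p 0.0357 with limma). Of 11 ligases tied to muscle atrophy, 3 fell and 8 did not pass. Trim63 fell by 1.23 ± 0.25, Cblb fell by 0.52 ± 0.11 and Fbxo30 fell by 0.34 ± 0.07. Of 33 E2 enzymes, 22 deubiquitinase cofactors and 7 proteases of SUMO or NEDD8, 0 passed, with medians of 0.01, -0.01 and 0.03. In HFD_O3 against STD_Cont and in HFD_O3 against HFD_Cont, 0 genes of these lists passed. In HFD_O3 against HFD_Cont, Tnfaip3 had -0.38 ± 0.13, with an adjusted p of 0.63.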

How the data were processed

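Total RNA of skeletal muscle from 24 mice was labelled from 200 ng with Cy3 and hybridised to Agilent arrays, per the labels' protocols. The image software was Agilent Feature Extraction 10.10.1.1, per the submitters' processing notes, and probe coordinates are on mm9, per the file headers. The deposited scanner files hold intensity per spot, including a processed intensity that is background-subtracted and not normalized between arrays. The authors' deposited value table is in log2 units; limma is named in the submitters' processing notes, with no version given. It holds 30124 probes, its column medians lay between 7.694 and 7.699, each of 24 columns tracked its own array's log2 median signal best (lowest correlation 0.9996), and its probe filter is unknown. It served as an alternative only.

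Spots with an outlier flag were dropped, repeated spots averaged, and each array's log2 processed intensity was scaled to its own 75th percentile, control probes aside (raw values 234 to 430). Probes marked well above background on 6 or more arrays of 1 group were kept (29245 of 56605), each of 19937 names was represented by its brightest probe on average, and all probes were kept for probe comparisons. Symbols came from RefSeq for 32989 probes with a matching accession and from the array design otherwise. The test was limma's moderated test, two-sided (version 3.58.1, R 4.3.3; lmFit, then eBayes). All 24 arrays entered 1 fit without a block, p-values were adjusted by Benjamini-Hochberg across the names tested, and 0.05 was the threshold. The comparisons share groups. The fit was tested on simulated data. The scripts used pandas 2.3.3 and matplotlib 3.10.9.

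The gene family and the gene lists were chosen with earlier results of these data known, so counts over members and lists are descriptions. Within the family, members were taken by name alone. Named were members past the threshold, the 6 smallest p-values in each direction and comparison, the 5 with the highest mean signal, those left out, and those whose probes disagreed in sign with 1 at an unadjusted p under 0.05; further members were named as examples of their role after their values were seen. Alternatives covered scaling, background correction, the filter, probe choice, slide, row and replicate blocks, 1 slide alone, 2 groups only, variance and weights, an adipocyte score as a covariate, and each array left out. Chosen after seeing the data were the removal of HFD_O3 arrays 1 and 7 and of the 7 arrays with an adipocyte score over 0.5. The number of arrays limits the precision.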

Additional observations from a re-analysis of the deposited data

Results flagged for a closer look

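In 9 of 87 groups of 8 arrays looked at, over the named genes, 1 array lay far from the others: its gap to the nearest array was over 0.526 of the group's range. Chance alone flags about 1 in 20 groups.

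The values for 4 genes were on arrays of HFD_O3 that stood apart for many members. On HFD_O3 array 7, Usp3 was at 2.62 (nearest array 1.92, group median 1.68) and Usp14 at 4.41 (nearest 4.19). On HFD_O3 array 1, Usp37 was at -0.637 (nearest -1.42) and Usp47 at 4.22, the lowest of its group (nearest 4.42). Without HFD_O3 array 7 the Usp3 difference between HFD_Cont and STD_Cont passed the threshold, with a limma adjusted p of 0.00631.

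Usp29, measured by 1 kept probe whose transcript had no RefSeq match, had such an array in all 3 groups, each time the highest: STD_Cont 4 at -1.54 (nearest -2.24), HFD_Cont 4 at -0.789 (nearest -2.20) and HFD_O3 6 at 0.131 (nearest -1.69). In STD_Cont, array 4 was the highest for Usp1 at 2.19 (nearest 2.07) and array 6 the highest for Usp20 at 2.59 (nearest 2.38).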

How the results depend on the processing

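HFD_O3 against HFD_Cont gave 0 member calls under each of the 21 other settings and each of the 24 fits with 1 array left out. For HFD_Cont against STD_Cont the 2 calls became 0 under median scaling, without a filter on dim probes, with slide plus row as a block, on slide 1, 2 or 3 alone, and with the 7 arrays of adipocyte score over 0.5 removed. They became 1 (Usp21) with the mean of a gene's probes and with slide as a fixed or a random block, 3 (with Usp3 lower) under quantile normalization, with probes above background on all 24 arrays and with trend and robust variance, and 4 (with Usp3 and Usp30 lower) with only the 2 groups compared, with array weights and with HFD_O3 arrays 1 and 7 removed. The 2 calls were Usp21 and Usp3 under normexp and under the authors' value table, and Usp21 and Usp53 with every probe tested. Usp3 passed as lower in 8 of the 21 settings and Usp30 in 3. For HFD_O3 against STD_Cont the 1 call was Usp30, lower, in place of Otud1 with HFD_O3 arrays 1 and 7 removed, and became 0 under median scaling, quantile normalization, normexp, the authors' value table, no filter, every probe tested on its own, slide as a fixed or random block, slide and row, each slide alone, 2 groups only, array weights and removal of the adipocyte-rich arrays. The calls under median scaling fell for all names too, from 581 to 177. With 1 array left out, the calls ranged from 0 (without STD_Cont 1) to 4 (without HFD_O3 1) and from 0 to 3 (without HFD_O3 7).

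With the replicate block, the calls were 1 (Usp21) for HFD_Cont against STD_Cont and 0 for HFD_O3 against STD_Cont. Whether the numbers pair the arrays was not settled, since same-numbered arrays mostly shared a slide. Same-numbered arrays correlated over 0.1 in 2 of 8 pairs of each comparison. In HFD_Cont against STD_Cont the median correlation was 0.058 for same-numbered and -0.018 for differently numbered arrays. It was 0.034 and 0.009 in HFD_O3 against HFD_Cont, and 0.043 and -0.003 in HFD_O3 against STD_Cont. Otud1 kept its direction in 21 of 21 other settings, from 0.836 to 2.38 in HFD_Cont and from 0.218 to 2.52 in HFD_O3, and passed in 7 and 4 of them. Usp21 kept its direction in 21 of 21 and passed in 14. On slide 3 alone, 3 values changed sign: Usp1 was 0.0132 in HFD_Cont against STD_Cont, and Usp30 and Usp39 were 0.0599 and 0.0199 in HFD_O3 against STD_Cont. The cause of these shifts was not tested. Genes left out by the filter have no value here.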

Other observations

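Genes whose levels followed Otud1 most closely from mouse to mouse were sought among 13308 names by the correlation of deviations from the group means over 24 arrays, as a description that shares arrays and scaling with Otud1. Csrnp1, a nuclear protein induced by growth signals, had r = 0.904, and Atf3, a stress-induced transcription factor, had r = 0.876. F2r, a thrombin receptor, had r = 0.853, and the inducible heat shock genes Hspa1a and Hspa1b had r = 0.845 and 0.833. The most opposed was Ankrd9, with r = -0.858. Without HFD_O3 arrays 1 and 6, the 2 farthest from the Otud1 median, r was 0.860 for Csrnp1, 0.809 for Atf3, 0.857 for F2r, 0.766 for Hspa1a, 0.744 for Hspa1b and -0.826 for Ankrd9.

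Between HFD_Cont and STD_Cont, Ankrd9 fell by 0.49 ± 0.12 (SE, adjusted p 0.0242 with limma). Angpt1, a further close follower (r = 0.809), rose by 0.44 ± 0.12, with an adjusted p of 0.0445. Atf3 had a difference of 0.98 ± 0.52 and Csrnp1 of 0.40 ± 0.28, with adjusted p of 0.357 and 0.529. F2r, Hspa1a and Hspa1b did not pass either. In HFD_O3 against STD_Cont, Csrnp1 had 1.06 ± 0.28 (adjusted p 0.0837) and Atf3 1.42 ± 0.52 (adjusted p 0.257). Angpt1 had 0.40 ± 0.12 there (adjusted p 0.144).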
